A study of Mus musculus with 8 samples.

Results

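Esrrb, Nr5a2, Tbx3, Tcl1, Zfp42 and Tcfcp2l1 form a set of regulators of the naive state of pluripotency. The set was defined by gene name: every array probe whose listed name, or the current symbol of whose listed transcript, was one of these 6 genes belonged to it. On the Agilent array 12 of 41174 probes met the rule, 4 for Tcfcp2l1, 2 each for Esrrb, Tbx3 and Zfp42, and 1 each for Nr5a2 and Tcl1, and these stand for 6 of 27590 genes. The current symbol of Tcfcp2l1 is Tfcp2l1.

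Of the 8 mouse samples in the series, the 4 hybridised to 1-colour Agilent arrays were used. The embryonic stem (ES) cells came from blastocysts of 129/Ola mice. The mouse embryonic fibroblasts (MEF) were of embryonic origin, with no strain, age or treatment named. Both induced pluripotent stem cell (iPSC) preparations were derived from MEF. PM2i-iPSC came from fibroblasts exposed to combinations with purmorphamine and then to 2i/LIF, and OM2i-iPSC from fibroblasts exposed to combinations with an oxysterol and then to 2i/LIF. Purmorphamine and certain oxysterols activate Smoothened, the signal transducer of the Hedgehog pathway, and 2i/LIF combines MEK and GSK3 inhibition with leukaemia inhibitory factor (LIF). The partner compounds, doses, times, passages and number of clones were not given in the sources used here. Each group was 1 array, so the data hold no spread between cultures, and no difference was tested.

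Naive pluripotency is the state of the epiblast before implantation and of ES cells grown in 2i/LIF. It is held by a network in which the core factors Oct4, Sox2 and Nanog work with a set of auxiliary transcription factors. LIF acts through Stat3, and Tcfcp2l1 is among the factors linked to that signal. Esrrb is a gene that becomes active when GSK3 inhibition relieves the repressor Tcf3. When cells leave the naive state, the auxiliary factors are shut down while Oct4 stays on for a time, so they report on the naive state more closely than the core factors do.

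Levels are given as log2 of the processed spot signal minus log2 of the 75th percentile of the same array, so 0 is the signal of a bright, upper-quartile spot. Differences between arrays are differences of these levels for the same probe. No fold was taken between different probes, because each probe has its own hybridisation efficiency. The summed marker signals and the choice of the brightest probe of a gene did use levels of different probes, so they carry those efficiencies. Errors are those the scanner software assigned to each spot, which came to about 0.20 for a difference between bright spots. The 95% intervals span 1.96 of these errors to each side, and they concern the measurement of spots, not the variation between cultures. Probes with several spots gave a larger SD for a difference, 0.268, so intervals built on that SD would be wider.

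Between 63.4% and 72.8% of 43379 non-control spots were well above background on the 4 arrays. The ES and PM2i-iPSC arrays shared a slide, and the MEF and OM2i-iPSC arrays lay on slides of their own. The MEF array was also scanned on a different day from the other arrays and extracted by an earlier software release, so the scan and the fibroblast identity cannot be told apart. The labelled cell types were set against marker genes. Pou5f1, which encodes Oct4, had levels of 3.65 in ES, 3.21 in PM2i-iPSC, 2.68 in OM2i-iPSC and -6.66 in MEF, and Sox2 had levels of 2.87, 2.46, 2.11 and -1.16 in that order. Nanog was saturated on the ES, PM2i-iPSC and OM2i-iPSC arrays and was at -3.96 in MEF. The summed signal of 14 fibroblast markers, in units of each array's 75th percentile, was 212 in MEF, 15.6 in ES, 8.04 in PM2i-iPSC and 10.4 in OM2i-iPSC. All 14 were above background in MEF, 13 in ES, 10 in PM2i-iPSC and 11 in OM2i-iPSC.

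**Figure D1:**
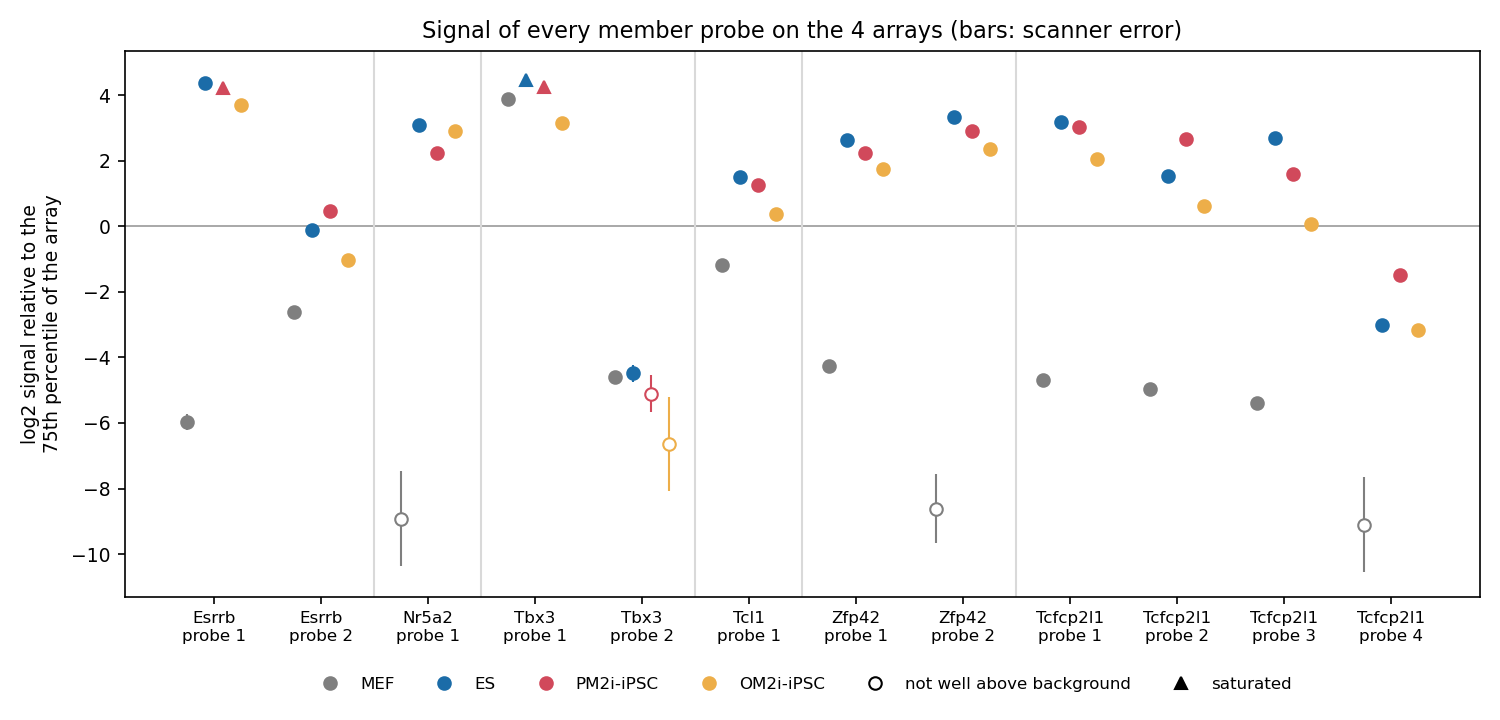
Level of each of the 12 probes on the 4 arrays (vertical axis, log2 signal relative to the 75th percentile of the array), with probes grouped by gene; bars are the scanner software's error, open symbols are not well above background and triangles are saturated. In every gene but Tbx3 the MEF point lies below the other 3 points, and the OM2i-iPSC point lies below the ES point for all 12 probes.

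Esrrb and Nr5a2 are nuclear receptors without a classical hormone. Esrrb (estrogen-related receptor beta) binds with the core factors and can stand in for Nanog in some settings, and Nr5a2 (LRH-1) binds regulatory DNA of Oct4 and can replace exogenous Oct4 during reprogramming. The Nr5a2 probe and Esrrb probe 1 were dim in MEF and strong on the ES, PM2i-iPSC and OM2i-iPSC arrays, called the pluripotent arrays here. The first 30 of the 60 bases of the Esrrb and Nr5a2 probes are shown because the Esrrb probes gave very different contrasts between cell types. Esrrb probe 1 lay at chr12:84523822-84523881 and probe 2 at chr12:84517502-84517561, both on the plus strand, with starts 6320 bases apart. The Nr5a2 probe lay at chr1:136732418-136732477 on the minus strand. Positions are in build mm7, and their place in exons, introns or untranslated regions was not analysed here.
Esrrb probe 1 (A_51_P419047): ttctgataatgacgttgtggctggaatgac
Esrrb probe 2 (A_52_P628212): caaaggacattgattattgctaaaggttag
Nr5a2 probe (A_51_P514449): atgcaaagacagtgattctgcatatggcct

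Esrrb probe 1, listed with the RefSeq transcript, had levels of 4.39 in ES, 4.23 in PM2i-iPSC, 3.72 in OM2i-iPSC and -5.97 in MEF. The PM2i-iPSC spot was saturated at a processed signal of 66283, and the ES spot, at 66266, was not called saturated. The ES spot was so close to the saturated signal that the ES differences of this probe may be underestimates. MEF alone was low, at a signal of 30.0. ES was 1310-fold above MEF (log2 difference 10.35, 95% interval 9.81 to 10.90), PM2i-iPSC at least 1174-fold and OM2i-iPSC 822-fold. The size of this contrast depended on the treatment of dim signals and on the probe: for ES against MEF it was 8.58 on the log2 scale with normexp background correction, at least 8.98 with 1 detection floor for all arrays and 6.43 as the median over the Esrrb probes. Between the pluripotent arrays the span was small: OM2i-iPSC was 1.59-fold below ES (log2 difference -0.67, interval -1.07 to -0.27) and at least 1.43-fold below PM2i-iPSC, and saturation left no fold between PM2i-iPSC and ES.

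Esrrb probe 2, which lies upstream of probe 1 and is listed with a cDNA clone, had levels of -0.11 in ES, 0.48 in PM2i-iPSC, -1.03 in OM2i-iPSC and -2.62 in MEF. The order of the pluripotent arrays was thus PM2i-iPSC, ES, OM2i-iPSC. ES exceeded MEF by only 5.67-fold with this probe, and PM2i-iPSC and OM2i-iPSC by 8.56-fold and 3.01-fold. This probe, which was not saturated anywhere, put PM2i-iPSC 1.51-fold above ES (log2 difference 0.59 with a scanner error of 0.20) and OM2i-iPSC 1.88-fold below ES. OM2i-iPSC was 2.84-fold below PM2i-iPSC.

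Nr5a2 had levels of 3.10 in ES, 2.91 in OM2i-iPSC and 2.25 in PM2i-iPSC, and in MEF its signal of 3.88 was not well above background. Against the detection floor of the MEF array, ES was at least 989-fold, OM2i-iPSC at least 865-fold and PM2i-iPSC at least 548-fold higher. These bounds hold for that array's own floor, and with 1 floor for all arrays they were 7.69, 7.50 and 6.84 on the log2 scale, in place of 9.95, 9.76 and 9.10. Nr5a2 was the member with PM2i-iPSC as the lowest of the 3 pluripotent arrays. ES and OM2i-iPSC, neighbours in its order, lay within the scanner error of each other (log2 difference -0.19, interval -0.59 to 0.21). PM2i-iPSC was 1.80-fold below ES (-0.85, interval -1.25 to -0.45), and OM2i-iPSC was 1.58-fold above PM2i-iPSC (0.66, interval 0.26 to 1.06).

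Tcfcp2l1 and Zfp42 followed the same broad pattern, far above MEF on every pluripotent array and lowest among these in OM2i-iPSC. Tcfcp2l1, a grainyhead-like transcription factor, is a target of LIF and Stat3 that supports self-renewal of ES cells. Zfp42, also called Rex1, encodes a zinc finger protein related to YY1 and is the standard reporter of the naive state. The first 30 bases of each Tcfcp2l1 probe are shown because they disagreed on the direction between PM2i-iPSC and ES. Probe 1 lay at chr1:118545588-118545647, probe 2 at chr1:118541064-118541123 and probe 4 at chr1:118539025-118539084 (mm7, plus strand), so that probe 1 is the most downstream, and no position is listed for probe 3. Probes 1 and 2 are listed with cDNA clones, and probes 3 and 4 with the RefSeq transcript.
Tcfcp2l1 probe 1 (A_52_P175376): gtacctgaaataaagcatattttgcacttg
Tcfcp2l1 probe 2 (A_52_P516473): gtagtgggagagtctagtttcatcctttta
Tcfcp2l1 probe 3 (A_52_P20867): tatacctgactgcatggaaacggggtcacc
Tcfcp2l1 probe 4 (A_52_P63232): ctcatggaccactactgtgtattctcattt

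Tcfcp2l1 probe 1, the brightest, had levels of 3.20 in ES, 3.04 in PM2i-iPSC, 2.07 in OM2i-iPSC and -4.68 in MEF. ES was 236-fold, PM2i-iPSC 211-fold and OM2i-iPSC 107-fold above MEF. ES and PM2i-iPSC were within scanner error of each other (-0.16, interval -0.56 to 0.24), and OM2i-iPSC was 2.20-fold below ES (-1.14, interval -1.54 to -0.74). All 4 probes were higher in each pluripotent array than in MEF, by log2 differences of 3.83 to 8.11 for ES, 5.38 to 7.72 for PM2i-iPSC and 3.69 to 6.75 for OM2i-iPSC, where the values for probe 4 are lower bounds.

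Between PM2i-iPSC and ES the Tcfcp2l1 probes did not give a single direction. Probe 2 was at 1.53 in ES and 2.67 in PM2i-iPSC, 2.21-fold higher in the latter. Probe 4 was at -3.02 and -1.47, 2.94-fold higher in PM2i-iPSC. Probe 3 was at 2.71 and 1.60, 2.16-fold lower in PM2i-iPSC. Each of these 3 differences exceeded its scanner error, and their range over the 4 probes was 2.66 on the log2 scale. Against ES, OM2i-iPSC was lower with all 4 probes, at -1.14, -0.90, -2.64 and -0.14 for probes 1 to 4. The last of these, with levels of -3.16 in OM2i-iPSC and -3.02 in ES, was within scanner error. OM2i-iPSC was below PM2i-iPSC with all 4, by 1.97-fold, 4.13-fold, 2.88-fold and 3.22-fold.

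The probes of Zfp42 overlap and share 20 of their 60 bases. Probe 1 lay at chr8:42080746-42080805 and probe 2 at chr8:42080786-42080857 (mm7, minus strand), with listed starts 40 bases apart, and the listed span of probe 2 is 72 bases for a probe of 60. The last 30 bases of probe 2 and the first 30 of probe 1 are shown, and the capitals mark the 20 bases they share.
Zfp42 probe 2, last bases (A_52_P629849): ccttactataTGTGCTATTGAAGGGGATGG
Zfp42 probe 1, first bases (A_51_P413376): TGTGCTATTGAAGGGGATGGggacttttgc

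Zfp42 probe 1 had levels of 2.65 in ES, 2.23 in PM2i-iPSC, 1.75 in OM2i-iPSC and -4.25 in MEF. Probe 2 had levels of 3.34, 2.92 and 2.35 on the pluripotent arrays in the same order, and in MEF its signal of 4.79 was not well above background, while that of probe 1 was 98.4. ES was 120-fold above MEF with probe 1 and at least 1169-fold with probe 2. The fold over MEF was 89.4 and at least 874 for PM2i-iPSC, and 64.2 and at least 590 for OM2i-iPSC. Between pluripotent arrays the probes gave almost the same answer: PM2i-iPSC was 1.34-fold below ES with both (-0.42, interval -0.82 to -0.02), and OM2i-iPSC was 1.86-fold and 1.98-fold below ES. OM2i-iPSC was 1.39-fold and 1.48-fold below PM2i-iPSC. The order ES, PM2i-iPSC, OM2i-iPSC, MEF was the same with both probes, although the step from ES to PM2i-iPSC with both probes, and the next step with probe 1, was less than 2 times the SD of a difference between spots (0.268).

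Tcl1 and Tbx3 probe 1 gave signals of 820 and 27974 in fibroblasts, where 9 of the 12 member probes were well above background. Tcl1 encodes a coactivator of the kinase Akt that promotes ES cell proliferation, and Tbx3 encodes a T-box transcription factor that acts in self-renewal and is also used in limb, mammary gland and other mesenchyme-containing tissues. The Tcl1 probe lay at chr12:102711536-102711595 (minus strand), Tbx3 probe 1 at chr5:118918450-118918509 and Tbx3 probe 2 at chr5:118906718-118906777 (plus strand), all in mm7. Their first 30 bases are given because the Tbx3 probes, with starts 11732 bases apart, behaved differently: probe 1 was saturated on the ES and PM2i-iPSC arrays and probe 2 was near background.
Tcl1 probe (A_51_P237129): agatcagccatcactcaaggtgttgtgcct
Tbx3 probe 1 (A_52_P183368): ggcatcttactaacccatgtgaggttttca
Tbx3 probe 2 (A_52_P389431): gccattctgaaatattctttacgtttagtt

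Tcl1 had levels of 1.51 in ES, 1.25 in PM2i-iPSC, 0.37 in OM2i-iPSC and -1.19 in MEF, where its signal of 820 was well above background. ES was 6.51-fold (2.70, interval 2.30 to 3.10), PM2i-iPSC 5.43-fold and OM2i-iPSC 2.96-fold above MEF. PM2i-iPSC and ES were within scanner error of each other (-0.26, interval -0.66 to 0.14). OM2i-iPSC was 2.20-fold below ES (-1.14, interval -1.54 to -0.74) and 1.83-fold below PM2i-iPSC.

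Tbx3 probe 1 had levels of 4.46 in ES, 4.26 in PM2i-iPSC, 3.90 in MEF and 3.17 in OM2i-iPSC, and the ES and PM2i-iPSC spots were saturated. MEF was therefore not low for this gene, and it lay above OM2i-iPSC, by 1.66-fold (log2 difference of OM2i-iPSC against MEF -0.73, interval -1.13 to -0.33). That difference was -0.18 with quantile normalization and -1.54 with the array median, and it was negative under each of the 8 alternative settings. ES was at least 1.48-fold and PM2i-iPSC at least 1.29-fold above MEF with the 75th percentile as the reference, whereas with the array median the saturated spots gave no fold against MEF. OM2i-iPSC was at least 2.46-fold below ES and at least 2.14-fold below PM2i-iPSC. Tbx3 probe 2 was dim everywhere, at -4.48 in ES and -4.60 in MEF, within scanner error of each other, and not well above background in PM2i-iPSC or OM2i-iPSC.

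Against fibroblasts, 5 of the 6 members exceeded MEF by 2-fold or more in ES, in PM2i-iPSC and in OM2i-iPSC, the exception each time being Tbx3, and none was 2-fold lower. The median log2 difference over the members, with bounds taken at their bound, was 7.39 in ES, 7.10 in PM2i-iPSC and 6.38 in OM2i-iPSC, against 0.28, 0.28 and 0.40 over all genes with a fold. Among all genes entering each comparison, 33.7% lay 2-fold or more above MEF and 22.5% below it in ES, 33.9% above and 23.6% below in PM2i-iPSC, and 36.8% above and 23.1% below in OM2i-iPSC. These 3 comparisons share the MEF array and are not independent. The balance of calls over all genes depended on the scaling: with the 75th percentile 60.0%, 58.9% and 61.4% of calls were higher, and with the array median 42.1%, 41.4% and 42.3%, which moved the median of all genes to -0.34, -0.41 and -0.41. Esrrb, Nr5a2, Zfp42 and Tcfcp2l1 were at least 2-fold above MEF under each of the 8 alternative settings; Tcl1 in OM2i-iPSC, at a log2 difference of 0.75 with the array median, was not.

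Placed on the log2 distance from MEF to ES, PM2i-iPSC reached 98.5% for Esrrb, 98.0% for Tcfcp2l1, 93.9% for Zfp42, 91.5% for Nr5a2 and 90.3% for Tcl1. OM2i-iPSC reached 98.1% for Nr5a2, 93.5% for Esrrb, 87.0% for Zfp42, 85.6% for Tcfcp2l1 and 57.9% for Tcl1. Each share rests on the gene's brightest probe. The MEF value of Nr5a2 is the detection floor, so its shares are approximate. For Esrrb the PM2i-iPSC spot was saturated at 66283 and the ES spot lay at 66266. The Esrrb share of PM2i-iPSC therefore cannot place it against ES, and that of OM2i-iPSC is approximate. With Esrrb probe 2, not saturated, PM2i-iPSC was 8.56-fold, ES 5.67-fold and OM2i-iPSC 3.01-fold above MEF. PM2i-iPSC lay above ES with Tcfcp2l1 probes 2 and 4 and below it with probe 3. The distance between MEF and ES was 2.70 for Tcl1 and 7.88 for Tcfcp2l1, while the gap between OM2i-iPSC and ES was -1.14 for both. Tbx3 has too short a distance between MEF and ES for such a share.

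Compared with ES, PM2i-iPSC had no member 2-fold apart in either direction, where 14.0% of all genes passed that line upwards and 11.3% downwards. The 4 members with a fold (Nr5a2, Tcl1, Zfp42 and Tcfcp2l1) were all below ES, with a median of -0.34 against -0.04 over all genes. Of these, Tcl1 (-0.26) and Tcfcp2l1 (-0.16) were within scanner error of ES. Esrrb and Tbx3 had no fold because of saturation. By probe, 7 of 10 with a fold were lower and 3 were higher, the latter being Esrrb probe 2 and Tcfcp2l1 probes 2 and 4. Over all probes 52.6% were lower. The member value of Tcfcp2l1 is that of probe 1. Tcfcp2l1 probes 2 and 4 were more than 2-fold above ES, and probe 3 was more than 2-fold below it.

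OM2i-iPSC lay below ES for every member. Tbx3 (at least 2.46-fold), Tcl1 (2.20-fold) and Tcfcp2l1 (2.20-fold) were at least 2-fold lower and none was 2-fold higher, where 13.3% of all genes were lower and 20.9% higher. The share of higher genes among these calls was 61.1%, or 49.8% with the array median. The median of the 6 members was -1.02, against 0.06 over all genes. All 12 probes were below ES, among 49.5% of all probes, although the values for Nr5a2 and Tcfcp2l1 probe 4 were within scanner error and those for both Tbx3 probes were bounds. For Esrrb probe 1 the ES spot lay near saturation, so its difference may be an underestimate. The sign held for all 6 members under each of the 8 alternative settings, with ranges of -0.85 to -0.56 for Esrrb, -0.37 to -0.08 for Nr5a2, -1.74 to -1.19 for Tbx3, -1.32 to -1.03 for Tcl1, -1.08 to -0.79 for Zfp42 and -1.77 to -1.03 for Tcfcp2l1. The OM2i-iPSC array lay on another slide than the ES array, and the part of slide and culture in this difference was not tested. Both comparisons against ES share the ES array.

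**Figure D2:**
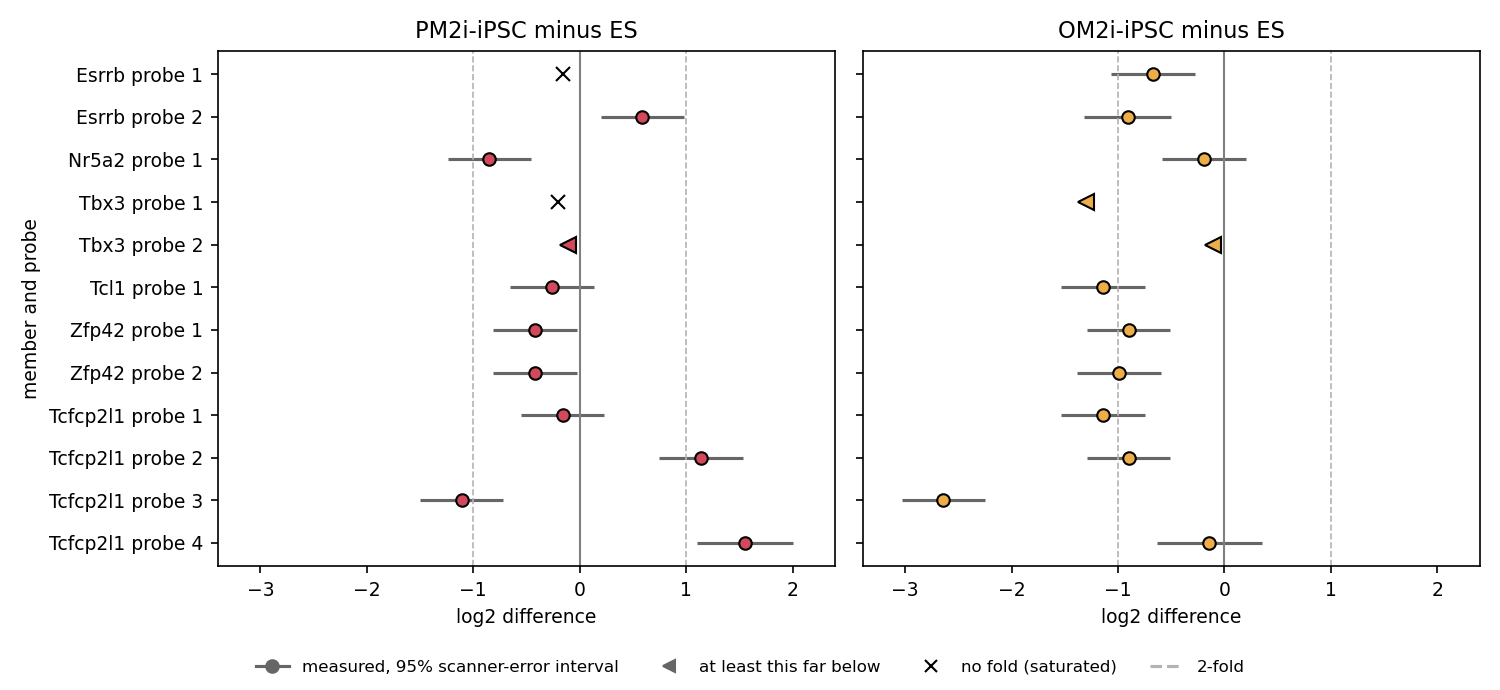
Log2 difference of each probe between an iPSC preparation and ES (horizontal axis; left PM2i-iPSC, right OM2i-iPSC), with 95% scanner-error bars; left-pointing triangles are bounds, crosses mark saturated spots with no fold, and dashed lines mark 2-fold. For PM2i-iPSC the Tcfcp2l1 probes spread from -1.11 to 1.55, and for OM2i-iPSC all 12 probes lie below 0, from -2.64 to -0.11.

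Between the iPSC preparations, Tbx3 passed the 2-fold line downwards in OM2i-iPSC and no member passed it upwards, where 12.2% of all genes were lower and 17.2% higher. Tcfcp2l1, at -0.97 with probe 1, lay just short of that line. The number of members past it was 1, but 2 with quantile normalization, 2 with the array median and 3 with the median over probes. Esrrb, Tbx3, Tcl1, Zfp42 and Tcfcp2l1 were below PM2i-iPSC and Nr5a2 was above it, with a member median of -0.70 against 0.10 over all genes. By probe, 10 of 11 were lower in OM2i-iPSC, whereas 46.5% of all probes were lower. Of these, 5 were lower by at least 2-fold, but 3 of the 5 are probes of Tcfcp2l1 and do not count as separate genes. The share of all probes past 2-fold was not computed. The widest measured difference of a member probe between the purmorphamine and oxysterol preparations was 4.13-fold, with Tcfcp2l1 probe 2, and the values of Esrrb probe 1 and Tbx3 probe 1 are bounds.

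The members were then set beside 30 other genes of the pluripotency network. Of 28 on the array, 23 had a fold between OM2i-iPSC and ES, of which 21 were within 2-fold, 1 was lower and 1 was higher. Among all genes 13.3% were lower and 20.9% higher. The median of the list was -0.52 (-0.70 to -0.31 under the 8 alternatives). With the array median 3 were lower and 1 was higher, with quantile normalization 2 and 1, and with the median over probes 2 and 2. The lower gene was Gdf3, a TGF-beta family ligand of the epiblast (-1.98), and the higher was Dppa3, a maternal factor that protects DNA methylation (1.87). In PM2i-iPSC, 21 of 22 were within 2-fold of ES, and Gdf3 was again the exception (-1.44), with a list median of -0.20. Among all genes 14.0% were higher and 11.3% lower there. Pou5f1 and Sox2 were below ES in both preparations, as the levels above show.

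Genes of formative and primed pluripotency, many of which come up on the way to the post-implantation epiblast, were all 16 on the array. Of these, 9 were above background in ES, 8 in PM2i-iPSC and 10 in OM2i-iPSC. Not all were low in ES, where Dnmt3a had a level of 3.81 and Nodal one of 2.94. In OM2i-iPSC, 5 of 10 with a fold were at least 2-fold above ES and none was lower, with a median of 0.82, beside 20.9% higher and 13.3% lower among all genes. The count was 4 or 5 and the median 0.39 to 0.93 under the 8 alternatives. Fgf5 was not well above background in ES, so it entered only through OM2i-iPSC and could not have counted as lower. List genes dim on both arrays did not enter. With no background filter and no floor the count was 5 and the median 0.39. The 5 genes were Lef1, a nuclear effector of Wnt signalling (-1.36 in ES, 1.55 in OM2i-iPSC, 7.50-fold), Otx2, a driver of the transition out of the naive state (-2.26 and -0.41, 3.59-fold), Zic2 (-2.97 and -1.14, 3.56-fold), Fgf5 (at least 3.06-fold) and Cdh2, which encodes N-cadherin (2.16-fold). In PM2i-iPSC none of 9 was higher and 3 were lower, beside 14.0% and 11.3% of all genes. Under the 8 alternatives 2 to 4 were lower and none was higher. The 3 genes were Zic2 (at least 3.08-fold), Lef1 (2.88-fold) and Dnmt3a (2.01-fold). Lef1 was therefore 21.6-fold and Zic2 at least 10.9-fold stronger in OM2i-iPSC than in PM2i-iPSC.

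**Figure D3:**
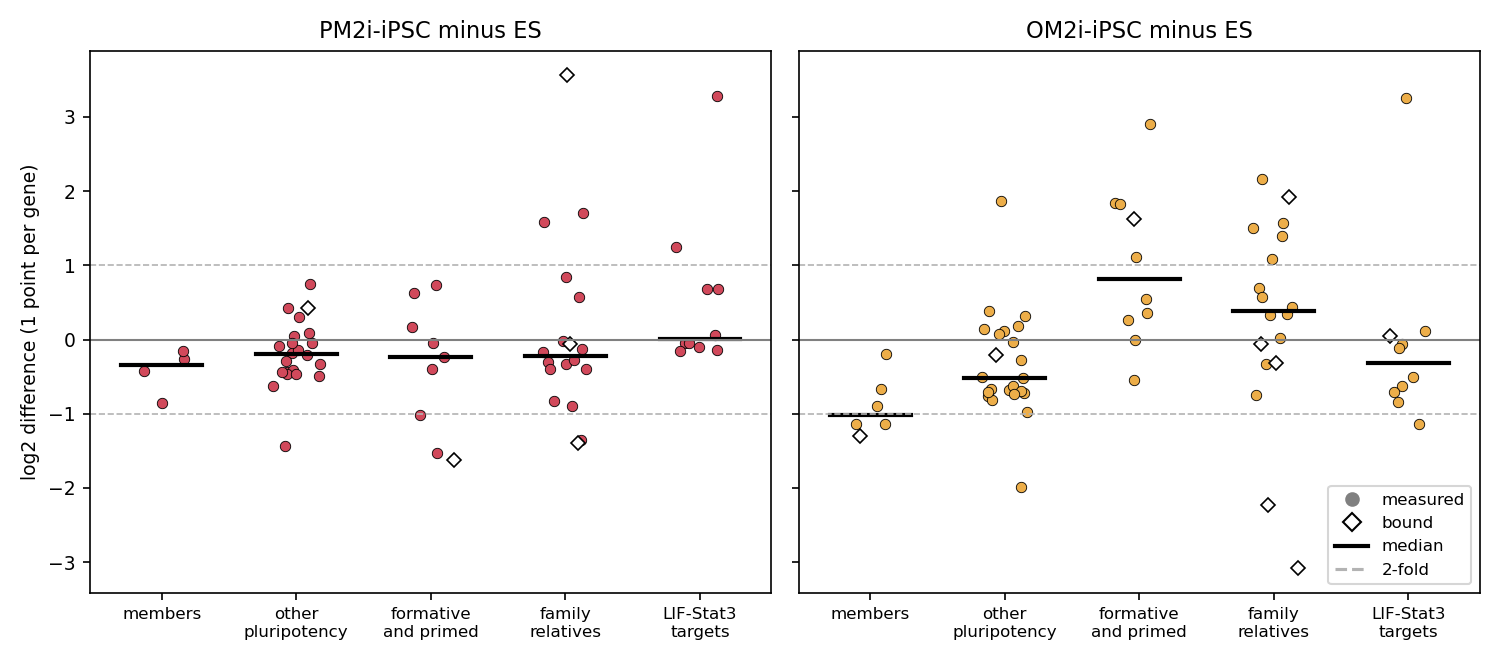
Log2 difference from ES (vertical axis) of each gene with a fold in 5 gene lists, for PM2i-iPSC (left) and OM2i-iPSC (right); diamonds are bounds, black bars are medians and dashed lines mark 2-fold. In OM2i-iPSC the members have a median of -1.02 and the formative and primed genes one of 0.82; in PM2i-iPSC these medians are -0.34 and -0.23.

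Targets and feedback genes of LIF and Stat3, a list of 10 that includes Tcfcp2l1 itself, had 8 of 10 within 2-fold of ES in each preparation. In PM2i-iPSC 2 were higher and none lower, beside 14.0% and 11.3% of all genes, and in OM2i-iPSC 1 was higher and 1 lower, beside 20.9% and 13.3%. Pim1, a kinase gene induced by Stat3, was 9.71-fold above ES in PM2i-iPSC and 9.53-fold above it in OM2i-iPSC. Lifr, the LIF receptor subunit, was 2.38-fold above ES in PM2i-iPSC and 1.79-fold below it in OM2i-iPSC. Tcfcp2l1 was the 1 gene of the list at least 2-fold below ES in OM2i-iPSC, and with quantile normalization, the array median or the median over probes 2 genes were.

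Family relatives of the members were represented by 22 of 24 genes on the array. In OM2i-iPSC 6 of 18 with a fold were higher than in ES and 2 lower, beside 20.9% and 13.3% of all genes, and in PM2i-iPSC 3 of 18 were higher and 2 lower, beside 14.0% and 11.3%. Nr5a1, the closest relative of Nr5a2 and a regulator of steroid synthesis, was not well above background in ES and was at least 11.8-fold higher in PM2i-iPSC and at least 3.80-fold higher in OM2i-iPSC. Tcl1b2 and Tcl1b3, of the Tcl1 cluster, were 4.50-fold and 2.86-fold above ES in OM2i-iPSC, opposite to Tcl1, and the related Mtcp1 was 2.98-fold above ES there. Tbx20, a T-box gene of the heart, was 3.27-fold above ES in PM2i-iPSC and at least 8.46-fold below it in OM2i-iPSC. The relatives of Tcfcp2l1 did not share a direction in OM2i-iPSC against ES. Tfcp2 was at least 4.68-fold below ES, whereas Grhl1 and Grhl2 were 2.63-fold and 2.11-fold above it and Ubp1 was within 2-fold (0.33).

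Markers of extraembryonic lineages were measured beside these results. Of 8 trophoblast markers on the array, 7 were above background in OM2i-iPSC and in ES and 5 in PM2i-iPSC. In OM2i-iPSC 2 of 7 with a fold were higher than in ES and none was lower, with a median of 0.15, beside 20.9% and 13.3% of all genes. These were Cdx2, 11.1-fold, and Hand1, 4.08-fold, and the other 5 were within 2-fold, from -0.68 for Tfap2c to 0.38 for Tpbpa. None was 2-fold apart between PM2i-iPSC and ES, where 14.0% of all genes were higher and 11.3% lower. The summed signal of the 8 markers was 15.2 in OM2i-iPSC, 19.2 in ES, 13.8 in PM2i-iPSC and 3.99 in MEF, in units of the 75th percentile. Most of the sum on the ES and OM2i-iPSC arrays came from Tfap2c, with levels of 3.71 in ES and 3.03 in OM2i-iPSC and also on the list of other pluripotency genes, and from Krt7, with 2.46 and 2.37. Of 9 primitive endoderm markers, 7 had a fold between OM2i-iPSC and ES, with a median of -0.35. Sox7 was 2.47-fold above ES while Lama1 and Pdgfra were 4.62-fold and 3.11-fold below, beside 20.9% higher and 13.3% lower among all genes. The other 4 were within 2-fold, from -0.63 for Gata4 to 0.95 for Sox17. In PM2i-iPSC 1 of 7 was lower than in ES (Dab2, at least 5.14-fold) and none was higher, beside 11.3% and 14.0% of all genes. In these bulk RNA samples a smaller share of cells that express a gene and less RNA per cell cannot be told apart, and the part of other cell types in the member values was not tested.

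The genes with the profile most like each member over the 4 arrays were found among 12903 candidates by the root mean square distance of centred log2 levels, after dim values had been raised to the array's floor. The nearest were Fam183b (0.07), Cecr2 (0.12) and Pla2g1b (0.15) for Esrrb, and Calca (0.21), Fmr1nb (0.27) and Mreg (0.29) for Nr5a2. For Tcfcp2l1 they were Mtfr2 (0.10), Ooep (0.10) and Ccdc73 (0.14), and for Zfp42 they were Camta1 (0.11), Zfp423 (0.15) and Gng3 (0.16). Nedd4l (0.07), Phospho1 (0.07) and Rmnd5b (0.10) lay nearest to Tcl1, and Marcksl1 (0.02), Fam43a (0.06) and Zbtb26 (0.06) to Tbx3, whose saturated values make its own profile a bound. With 4 arrays and so many candidates, close profiles are frequent, and the distances are descriptions. Between members the closest were Zfp42 with Tcfcp2l1 (0.46) and Esrrb with Nr5a2 (0.47), and the farthest were Esrrb with Tbx3 (4.34).

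Sequences upstream of the annotated start sites were read from RefSeq (GRCm38.p6), which held 7 windows for 5 of the 6 members. They are shown because these members were high together on the pluripotent arrays. Each window holds the 250 bases before a start. Both strands were searched for the octamer bound by Oct4 (ATTTGCAT), the monomer site of receptors such as Esrrb and Nr5a2 (AAGGTCA), the Stat site (TTCNNNGAA), a Klf site (CCACCC) and the T-box core (AGGTGTG); none of these overlapped another in the members. Of 32851 windows of this length, 1.60%, 4.08%, 7.02%, 28.1% and 5.10% held them in that order. Capitals mark the matches, and a match is a description of letters, not of binding. In the minus-strand gene Zfp42 (chr8:43307010-43307259) the octamer began 186 bases before the start, and Klf sites began 157 and 118 bases before it. In the plus-strand gene Esrrb (chr12:86360867-86361116, window 1) a Stat site began 178 and a Klf site 37 bases before the start. In the minus-strand gene Tcl1 (chr12:105222738-105222987) a Klf site began 83 and a T-box core 23 bases before it.
Zfp42: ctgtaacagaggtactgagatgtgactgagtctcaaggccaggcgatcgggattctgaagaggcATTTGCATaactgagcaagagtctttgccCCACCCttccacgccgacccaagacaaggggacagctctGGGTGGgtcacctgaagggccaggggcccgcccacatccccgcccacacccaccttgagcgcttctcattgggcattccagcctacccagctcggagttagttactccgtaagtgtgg
Esrrb window 1: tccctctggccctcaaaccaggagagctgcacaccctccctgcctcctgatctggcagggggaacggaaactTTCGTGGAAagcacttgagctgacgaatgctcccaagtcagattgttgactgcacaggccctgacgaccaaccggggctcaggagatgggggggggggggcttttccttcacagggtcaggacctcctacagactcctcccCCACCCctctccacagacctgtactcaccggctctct
Tcl1: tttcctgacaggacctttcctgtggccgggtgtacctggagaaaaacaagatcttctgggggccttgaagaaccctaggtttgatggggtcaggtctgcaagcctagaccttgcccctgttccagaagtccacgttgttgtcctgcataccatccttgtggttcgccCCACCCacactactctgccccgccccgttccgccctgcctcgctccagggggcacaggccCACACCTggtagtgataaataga

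**Figure D4:**
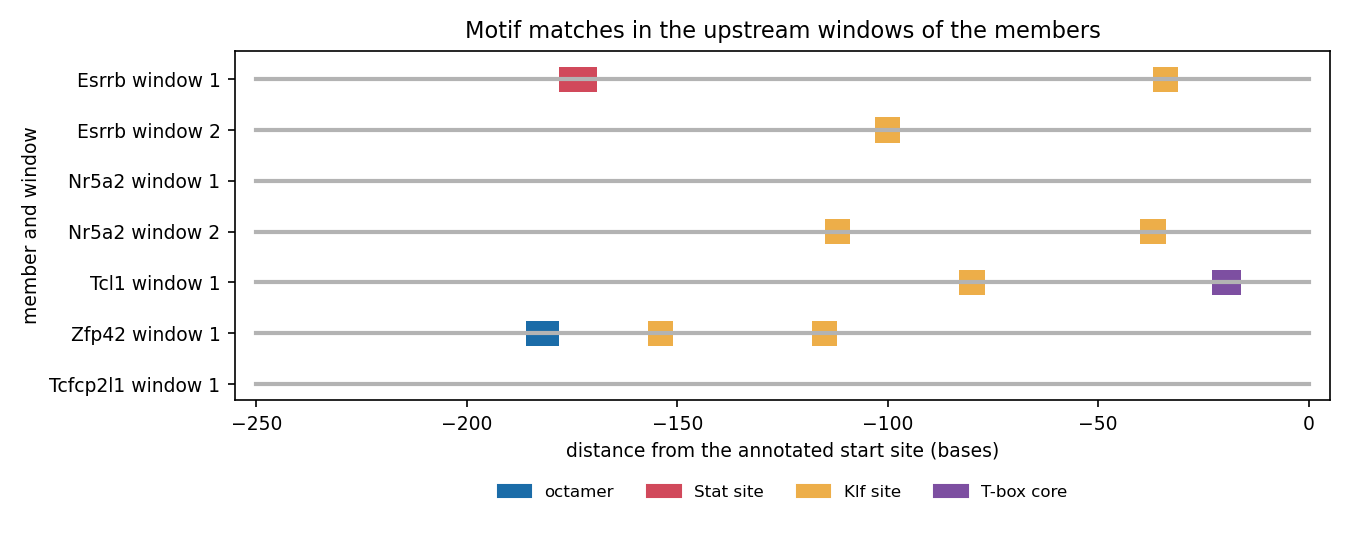
Positions of motif matches (coloured boxes) in the 250 bases before the annotated start (horizontal axis, bases from the start) for the 7 windows of 5 members. Zfp42 has the only octamer, Esrrb window 1 the only Stat site and Tcl1 the only T-box core in these windows, and no match lies in Nr5a2 window 1 or Tcfcp2l1.

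The other windows held only Klf sites or nothing. Esrrb window 2, at another annotated start, had a Klf site 103 bases before the start, and Nr5a2 window 2 had Klf sites 115 and 40 bases before it. The monomer site of nuclear receptors was found in none of the 7 windows.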

How the data were processed

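Expression in ES, MEF, PM2i-iPSC and OM2i-iPSC was measured with 1 single-colour Agilent array each. The scanner files hold spot intensity, extracted with Agilent Feature Extraction 10.7.3.1 (MEF 9.5.3.1) per the file headers. The deposited table of the series gave these intensity values within 0.50% and was run as an alternative. The deposited Affymetrix values (log2, RMA, per the submitters' processing notes) were not used here. Here, control and outlier spots were left out, spots of a probe averaged, and log2 of the processed signal taken minus the array's 75th percentile (ES 3162, MEF 1877, PM2i-iPSC 3529, OM2i-iPSC 3426). Probes were named through the RefSeq table by accession (22951), symbol (6659) or older symbol (3109), and 8455 kept the file's name. The brightest probe, with the highest mean level over the 4 arrays including MEF, stood for a gene. For Zfp42 this took probe 1, although probe 2 was brighter on the pluripotent arrays and gave larger folds over MEF. A gene entered a comparison when above background on at least 1 of its arrays. A dim side was raised to the array's detection floor and a saturated brighter side kept, both written "at least". Groups of 1 array allow no test, and the number of arrays and the spot error (pooled SD 0.190, or 0.268 for a difference) limit precision. Tools were Python 3.11.15, numpy 2.4.6, pandas 2.3.3, R 4.3.3 and limma 3.58.1. The genes named were all members, Pou5f1, Sox2 and Nanog, up to 4 genes per list with the widest difference, and the 3 nearest profiles per member. Genes named beyond the widest 4 were chosen after their values were seen. Members and lists were chosen with earlier results of these data known. The 8 alternatives cover scaling, background, source, probe choice, filter and floor.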

Additional observations from a re-analysis of the deposited data

How the results depend on the processing

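Of 288 member differences recomputed under 8 alternatives, 218 moved by less than 0.268 on the log2 scale, the SD of a difference between spots, and 70 moved further. Of the 288, 19 had no fold, because of saturation, in the reported or the alternative setting, and so no direction. Among the other 269, the sign differed in 1 (Tcfcp2l1 in PM2i-iPSC against ES, -0.16 as reported and 0.02 with the median over probes) and the side of 2-fold in 10. Quantile normalization put Tbx3 2-fold above MEF in ES (1.09) and PM2i-iPSC (1.03), and the array median put it 2-fold below in OM2i-iPSC (-1.54) and Zfp42 2-fold below ES there (-1.08). The number of members 2-fold apart between the iPSC preparations was 1, but 2 with quantile normalization, 2 with the array median and 3 with the median over probes. The cause was not tested. The other counts of members 2-fold apart stayed within 1.5 times the reported ones. No paired analysis was possible because each group was 1 array. Spots near saturation (Esrrb, Tbx3) and near background (Nr5a2 and Zfp42 in MEF) limit the folds to bounds.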
